A study of Mus musculus with 8 samples.

Results

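Marker genes of T cells, natural killer (NK) cells, B cells and plasma cells were examined in bulk RNA from mouse liver. The set holds 10 named genes, Cd3e, Cd3g, Cd8a, Nkg7, Gzma, Gzmb, Prf1, Ccl5, Cd79a and Jchain, and all 10 were found by symbol among the 22013 genes of the deposited table. The libraries, 4 labelled control and 4 labelled resmetirom, hold poly(A)-selected liver RNA. Resmetirom is a drug that activates the thyroid hormone receptor, mainly its beta form, which liver cells carry. The series models metabolic dysfunction-associated steatohepatitis (MASH), a fatty liver disease with inflammation, with a fructose, palmitate and cholesterol diet lasting 12 weeks. The drug was injected intraperitoneally at 5 mg/kg/day for 8 weeks, beginning after 4 weeks of diet, and the vehicle was 0.5% carboxymethyl cellulose sodium with 0.4% Tween-80. For the control libraries the labels give neither diet nor vehicle, so an effect of either and one of the drug cannot be told apart. The strain, sex and age of the mice are not stated in the labels. Nothing in the labels ties each library to its own animal, so p-values reflect only how these libraries vary, which may be technical.

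T cells recognise antigen through a receptor that signals by the CD3 chains, and cytotoxic T cells carry the co-receptor CD8. NK cells and cytotoxic T cells kill by releasing granules with perforin, which opens the target membrane, and granzymes, the proteases that enter through it. B cells signal through the CD79 chains of their receptor, and plasma cells secrete antibody, with the J chain linking the units of polymeric IgA and IgM. Mouse liver is rich in NK and other innate-like lymphocytes beside hepatocytes, and inflamed fatty livers can hold T cells and IgA-producing plasma cells.

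Library totals lay between 16787561 and 19887539 counts. Levels below are counts scaled to library size (CPM) with TMM factors, which adjust each library for its composition, and levels of different genes are compared only as TPM, which corrects for length. Libraries with TMM factors of 1.06 to 1.16 (all controls and resmetirom replicate 1) stood apart from resmetirom replicates 2 to 4, at 0.804 to 0.879. The median log2 change over all 12207 tested genes was -0.0043, and -0.31 when libraries were scaled by their totals alone. The tissue label was checked against 6 hepatocyte genes, whose summed level was 73400 to 84400 CPM in the control libraries and 86800 to 96100 CPM with resmetirom. Of these 0 were called with edgeR, 2 were called higher by DESeq2 and by limma-voom (Alb and Apoa1), and Serpina1c, an alpha-1-antitrypsin gene, had the smallest p at -0.61 (adjusted p = 0.0536 with edgeR) and was called lower by DESeq2 (adjusted p = 0.00939) and in 7 further settings. The labels name an MGI and an Illumina sequencer without saying which library was run on which, so the part of the instrument was not tested. In bulk tissue, more cells of a type and more RNA per cell cannot be told apart.

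The lymphocyte and plasma cell genes were rare transcripts, with group means of 0.172 to 2.84 TPM in the control libraries. Jchain was the 1 member that passed edgeR's quasi-likelihood test (Benjamini-Hochberg adjusted p under 0.05) as higher with resmetirom, and 0 members passed as lower. Over all tested genes 2.6% were called higher and 1.99% lower, and among tested genes with a mean under 5 CPM 0.872% were called higher. Of the 10 members, 6 passed the filter on low counts (Nkg7, Cd3g, Gzmb, Ccl5, Jchain and Cd79a), and Cd3e, Cd8a, Gzma and Prf1 did not. In a fit with no such filter all 10 had a log2 fold change above 0, as did 48.7% of the 16019 genes with a count, and 9 were above 1, against 8.46%. That fit called 1 member higher, Jchain, beside 1.94% of its genes. The median was 1.41 for the members and -0.0097 for those genes. The shares and median of all genes cover every level, while the members are rare transcripts. The members were also chosen with earlier results of these data known, so the contrast is a description only. At an unadjusted p under 0.05, 5 of the 6 tested members were higher (Jchain, Nkg7, Cd3g, Ccl5 and Gzmb) and 0 lower, beside 9.48% and 8.36% of all tested genes. A gene can pass the filter through the group where it is high, so this count is a description only. In the fit with no filter Gzmb was at an unadjusted p of 0.0548 and Prf1 at 0.0485 (edgeR).

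**Figure D1:**
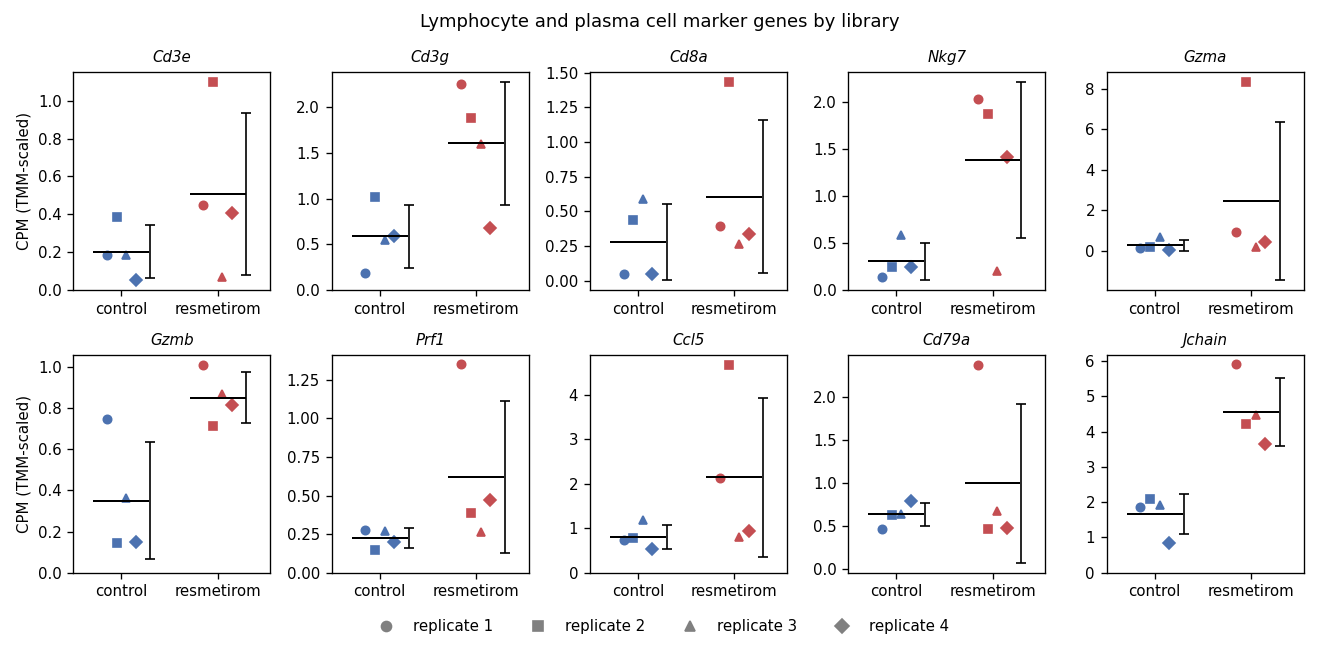
CPM (TMM-scaled) of each of the 10 marker genes in the 4 control and 4 resmetirom libraries, 1 panel per gene with its own axis. Symbols mark replicates, horizontal lines group means and bars 1 SD. The groups do not overlap for Jchain and overlap for the other 9, and a single resmetirom library lies far above the rest for Gzma, Cd8a and Cd79a.

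In order of TPM in the control libraries, Ccl5 (2.84 ± 0.969), Jchain (2.22 ± 0.703) and Cd3g (1.47 ± 1.33) came first (SD, n = 4). Cd79a (0.812 ± 0.205), Nkg7 (0.679 ± 0.483), Gzma (0.569 ± 0.62) and Gzmb (0.447 ± 0.344) followed, and Cd3e (0.252 ± 0.17), Prf1 (0.175 ± 0.0358) and Cd8a (0.172 ± 0.168) were lowest. Each neighbouring pair in this order differed by less than the larger of its SDs. In the resmetirom libraries Ccl5 (5.42 ± 4.36 TPM) and Jchain (4.45 ± 1.78 TPM) were again the highest, followed by Gzma at 3.6 ± 5.54 TPM, an SD larger than the mean (n = 4).

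Jchain encodes the joining chain of polymeric IgA and IgM and is made by antibody-secreting cells (ENSMUSG00000067149, chromosome 5, 88519809 to 88527891 on GRCm38, minus strand). It had 40, 43, 42 and 17 counts in control replicates 1 to 4 and 105, 65, 67 and 54 in resmetirom replicates 1 to 4. Every resmetirom library lay above every control library, in counts, CPM and TPM. Of all tested genes 6.32% were separated that way in CPM and 5.5% in the other direction, and 0 members were separated in the other direction. The level rose from 1.67 ± 0.563 to 4.57 ± 0.963 CPM (SD, n = 4 per group), which gave a log2 difference of 1.44 (edgeR SE of 0.3, adjusted p = 0.0157). The call held under all 18 alternatives, with an adjusted p of 0.000126 to 0.0444. The size depended on the scale, at 1.17 for totals alone, 0.74 for log2(TPM + 1) and 0.97 for log2(TPM + 0.1) values. The medians over all genes on these scales were -0.31, -0.41 and -0.50, and the offset of 1 also understates changes of low genes. The authors' deposited table gives Jchain mean TPM values of 2.22 and 4.45, a log2 fold change of 1.0 and an adjusted p of 0.0146.

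Partners of the J chain moved in different directions. Igha, which encodes the heavy chain constant region of IgA (ENSMUSG00000095079, chromosome 12, 113254830 to 113260236), had 11, 32, 33 and 14 counts in the control libraries and 139, 102, 37 and 65 with resmetirom. Its groups did not overlap in counts or CPM, while in TPM resmetirom replicate 3 (2.49) lay below control replicates 2 (2.55) and 3 (2.6). Igha rose from 1.06 ± 0.538 to 5.33 ± 2.38 CPM (SD, n = 4 per group), which gave a log2 difference of 2.32 (edgeR SE of 0.43, adjusted p = 0.0093), and 1.36 for log2(TPM + 1) values. Antibody genes form a family of similar segments, and how the authors assigned reads shared among them is not stated in the labels.

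Ighm, the IgM heavy chain, was at 4.8 ± 0.798 and 7.02 ± 4.0 CPM (SD, n = 4 per group) and was not called, at 0.55 (edgeR SE of 0.37, adjusted p = 0.52). Its resmetirom libraries spread on both sides of the controls, with 166, 175, 68 and 42 counts against 125, 80, 104 and 97. Igkc, the kappa light chain, was at 2.78 ± 0.951 and 5.41 ± 2.54 CPM (SD, n = 4 per group), with a log2 fold change of 0.96 (edgeR SE of 0.34, adjusted p = 0.148). Pigr encodes the polymeric immunoglobulin receptor, by which epithelial cells and mouse hepatocytes carry J chain-containing antibody (ENSMUSG00000026417, chromosome 1, 130826684 to 130852249). It fell from 527 ± 74.1 to 171 ± 24.6 CPM (SD, n = 4 per group), which gave a log2 difference of -1.63 (edgeR SE of 0.13, adjusted p = 1.85e-05), with 9784 to 13038 counts per control and 2100 to 3104 per resmetirom library. Of the 18 plasma cell and immunoglobulin genes listed beside Jchain 9 were tested, 1 was called higher (Igha) and 1 lower (Pigr), to which DESeq2 added Tent5c as higher, and their median was 0.71. At an unadjusted p under 0.05, 4 of them were higher (Igha, Ighg2b, Igkc and Tent5c) and 2 lower (Pigr and Prdm1). Prdm1, which encodes the plasma cell regulator Blimp-1 and is also made by other cells, was at -1.21 (edgeR SE of 0.52, adjusted p = 0.243), with 11 to 28 counts per control and 2 to 12 per resmetirom library. Mzb1, a chaperone of antibody assembly, had 1 to 6 counts per library, and Tnfrsf17, which encodes the plasma cell receptor BCMA, had 1 count in all 8 libraries together.

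**Figure D2:**
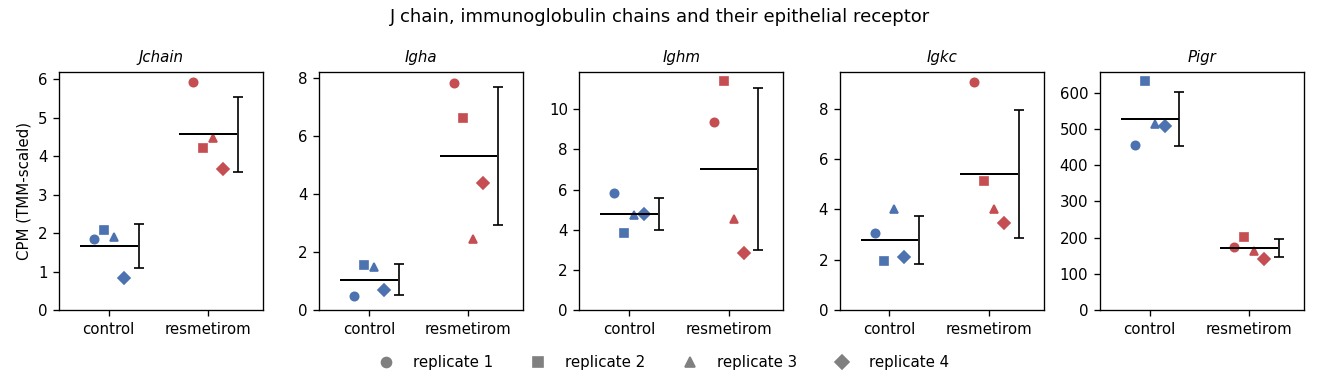
CPM (TMM-scaled) of Jchain, Igha, Ighm, Igkc and Pigr by library, with group means (lines) and 1 SD (bars). Jchain and Igha are higher in all 4 resmetirom libraries, Pigr is lower in all 4, and the groups overlap for Ighm and Igkc.

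Cd79a encodes a signalling chain of the B cell receptor (ENSMUSG00000003379, chromosome 7, 24897381 to 24902197, plus strand). Its counts were 10, 13, 14 and 16 in the control libraries and 42, 7, 10 and 7 with resmetirom. Resmetirom replicate 1 was high, and the other 3 lay within or just below the control range, at 0.455 to 0.666 CPM against 0.466 to 0.791 CPM. The log2 fold change was 0.67 (edgeR SE of 0.56, adjusted p = 0.614) and turned to -0.24 without that library. Its partner chain Cd79b was at -0.01 (edgeR SE of 0.55, adjusted p = 0.995). Of 19 other B cell genes 10 were tested and 0 were called in either direction, with 0 at an unadjusted p under 0.05 and a median of 0.27. Ighd, the IgD heavy chain and the list's gene with the smallest p, was at 0.8 (edgeR SE of 0.48, adjusted p = 0.441). Of the 10 tested genes 8 lay above 0 and 2 below, Cd79b and Cd22, the latter at -0.62 (edgeR SE of 0.40, adjusted p = 0.491).

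Genes of the T cell receptor complex were not called. Cd3e (ENSMUSG00000032093, chromosome 9, 44998740 to 45009627, minus strand) encodes the epsilon signalling chain and had 4, 8, 4 and 1 counts in the control libraries and 8, 17, 1 and 6 with resmetirom. Resmetirom replicate 3 had 1 count, as the lowest control did, and the other 3 lay above every control in CPM. The mean was 0.201 ± 0.139 CPM against 0.507 ± 0.433 CPM (SD, n = 4 per group), a log2 ratio of means of 1.33, or 0.61 without resmetirom replicate 2. In the fit with no filter its adjusted p was 0.509 with edgeR. In the annotation Cd3e overlaps the genes Gm48719 and Gm48720, the first on the opposite strand, and the handling of strand is not stated in the labels.

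Cd3g, the gamma chain (ENSMUSG00000002033, chromosome 9, 44969572 to 44980431, minus strand), had 4, 21, 12 and 12 counts in the control libraries and 40, 29, 24 and 10 with resmetirom. Of the resmetirom libraries 3 lay above the highest control, and replicate 4 at 0.678 CPM lay below control replicate 2 at 1.02 CPM. The log2 fold change was 1.45 (edgeR SE of 0.51, adjusted p = 0.148). In TPM the groups were closer, at 1.47 ± 1.33 and 2.14 ± 1.19 (SD, n = 4 per group). The deposited TPM per count of Cd3g was 0.162 in control replicate 2 and 0.0723 to 0.095 in the other 7 libraries, so that the TPM of this 1 library does not follow its count the way the others do. On the log2(TPM + 1) scale the change was 0.41.

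Cd8a encodes the alpha chain of the CD8 co-receptor of cytotoxic T cells (ENSMUSG00000053977, chromosome 6, 71373427 to 71379173, plus strand). It had 1, 9, 13 and 1 counts in the control libraries and 7, 22, 4 and 5 with resmetirom. Only resmetirom replicate 2 lay above every control. The log2 ratio of mean CPM was 1.11 and was 0.25 without that library, and the fit with no filter gave an adjusted p of 0.606 with edgeR. The beta chain gene Cd8b1 was at 0 to 9 counts in both groups.

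Among 27 other T cell genes 10 were tested, 0 were called in either direction and 4 had an unadjusted p under 0.05, all higher (Thy1, Trbc2, Cd247 and Cd3d). DESeq2 and limma-voom also called 0 of this list and of the B cell list. Of the 10 tested T cell genes 8 lay above 0 and 2 below. Those below were Zap70 at -0.38 (edgeR SE of 0.48, adjusted p = 0.764) and Icos at -0.03 (edgeR SE of 0.44, adjusted p = 0.989). The list's median was 0.84. Thy1, a surface glycoprotein of T cells and fibroblasts, had its smallest p, at 1.02 (edgeR SE of 0.40, adjusted p = 0.205). Cd3d, the delta chain, was at 1.59 (edgeR SE of 0.72, adjusted p = 0.269) and Cd247, the zeta chain, at 1.51 (edgeR SE of 0.67, adjusted p = 0.26). Trac, the constant region of the receptor's alpha chain, had 10 counts over the control and 43 over the resmetirom libraries and was not tested. Cd4, the co-receptor of helper T cells, had 32 and 29 counts over the groups and was also below the filter.

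The 4 cytotoxic effector genes were not called with edgeR. In CPM all were higher in 2 or more resmetirom libraries than in every control. For Gzmb, in counts and in TPM, only resmetirom replicate 1 lay above every control. Nkg7, a granule membrane protein of NK and cytotoxic T cells (ENSMUSG00000004612, chromosome 7, 43437073 to 43438249, plus strand), had 3, 5, 13 and 5 counts in the control libraries and 36, 29, 3 and 21 with resmetirom. Resmetirom replicates 1, 2 and 4 lay above every control, and replicate 3 lay within the control range. The level was 0.305 ± 0.197 CPM against 1.38 ± 0.831 CPM (SD, n = 4 per group), which gave a log2 difference of 2.16 (edgeR SE of 0.65, adjusted p = 0.0897). It passed with DESeq2 (2.19, adjusted p = 0.0255) and on leaving out resmetirom replicate 3 (2.51, adjusted p = 0.0165), and the authors' deposited table gives an adjusted p of 0.0448. On the log2(TPM + 1) scale it was 0.84 (adjusted p = 0.0579 with limma).

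Gzma encodes granzyme A, a granule protease of NK cells and cytotoxic T cells (ENSMUSG00000023132, chromosome 13, 113093825 to 113100981, minus strand). It had 3, 4, 15 and 1 counts in the control libraries and 16, 128, 3 and 6 with resmetirom. Resmetirom replicate 2 alone held 128 of the 153 counts of its group, with an exact 95% Poisson interval of 107 to 152 that covers counting error only, while the next highest library had 16 (9.15 to 26.0). The log2 ratio of mean CPM was 3.21, and without that library it was 0.92. Gzma did not pass the filter on low counts, and the fit with none gave an adjusted p of 0.353 with edgeR.

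Gzmb encodes granzyme B, the protease that starts caspase cleavage in target cells (ENSMUSG00000015437, chromosome 14, 56258838 to 56262260, minus strand). It had 16, 3, 8 and 3 counts in the control libraries and 18, 11, 13 and 12 with resmetirom. The resmetirom libraries lay close together, the lowest at 0.714 CPM, and control replicate 1 at 0.745 CPM reached above it. The log2 fold change was 1.26 (edgeR SE of 0.55, adjusted p = 0.248), and without control replicate 1 it was 1.92 (adjusted p = 0.0893). Mast cells and basophils, which can also express granzyme B, left 0 counts in any library for 6 of 7 markers (Cpa3, Mcpt4, Tpsb2, Fcer1a, Mcpt8 and Ms4a2). The other marker, Kit, which liver also expresses, was at 0.17 (edgeR SE of 0.20, adjusted p = 0.741).

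Prf1 encodes perforin (ENSMUSG00000037202, chromosome 10, 61297833 to 61304680, plus strand). It had 6, 3, 6 and 4 counts in the control libraries and 24, 6, 4 and 7 with resmetirom. Resmetirom replicate 1 was high, and the other 3 libraries lay between 0.266 and 0.474 CPM, against 0.145 to 0.279 CPM in the controls. The log2 ratio of mean CPM was 1.47, and 0.75 without that library, and the fit with no filter gave an adjusted p of 0.336 with edgeR. Gzma and Prf1 were thus highest in different libraries.

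Of 20 other NK and cytotoxic genes 6 were tested, 0 were called and 1 had an unadjusted p under 0.05, Il2rb, and the median was 0.38. Il2rb encodes the beta chain shared by the interleukin-2 and interleukin-15 receptors. It had 20 to 37 counts in the control libraries and 31 to 61 with resmetirom, did not overlap between the groups in CPM, and was at 1.21 (edgeR SE of 0.32, adjusted p = 0.0537), passing with DESeq2 (adjusted p = 0.00675) or if resmetirom replicate 3 was left out (adjusted p = 0.0424). In TPM it was at 0.754 ± 0.399 and 0.986 ± 0.331 (SD, n = 4 per group), with a difference of 0.19 for log2(TPM + 1) values (limma, adjusted p = 0.38). The NK receptor gene Ncr1 was at 0 to 2 counts in both groups, Klrb1c, which encodes NK1.1, was at 0.58 (edgeR SE of 0.43, adjusted p = 0.557), and Klrd1, which encodes CD94, at 0.17 (edgeR SE of 0.71, adjusted p = 0.942). Gzmk, another granzyme, had 0 counts in all controls and 0, 7, 1 and 2 in the resmetirom libraries.

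The bases before the start sites of the 4 cytotoxic effector genes, which share a role, are shown beside those of Jchain, the called member. Promoter windows from RefSeq on GRCm38.p6 matched 9 of the 10 members, all but Ccl5, and the 250 bases before each start were searched on both strands for 9 motifs. These were the octamer ATGCAAAT, the ETS-type AGGAAG, the RUNX-type TGTGGT, the T-box-type TCACAC, the E-box CACCTG, the AP-1-type TGANTCA, the CRE-type TGACGTCA, the kB-type GGGANTTTC and the GATA-type AGATAA. The RUNX-type letters, which no match of another motif overlapped, were found before Nkg7, Gzma, Gzmb and Prf1 and before none of the other 5 members searched. They stand in 14% of the 32851 windows of that length, the pattern was picked after the matches were seen, and a match is a description of the letters only. None of the 9 motifs was found before Jchain. The last 140 bases before each start are printed 5′ to 3′ on the gene's strand, with the RUNX-type letters in capitals, in the order chr7:43436998-43437137 (+ strand), chr13:113100982-113101121 (- strand), chr14:56262335-56262474 (- strand), chr10:61297696-61297835 (+ strand) and chr5:88527898-88528037 (- strand).
Nkg7: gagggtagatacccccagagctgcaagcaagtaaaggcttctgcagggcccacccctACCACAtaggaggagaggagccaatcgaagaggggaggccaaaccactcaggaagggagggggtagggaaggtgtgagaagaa
Gzma: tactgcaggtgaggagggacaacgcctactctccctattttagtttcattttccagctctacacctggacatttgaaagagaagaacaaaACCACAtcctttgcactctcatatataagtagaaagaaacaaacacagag
Gzmb: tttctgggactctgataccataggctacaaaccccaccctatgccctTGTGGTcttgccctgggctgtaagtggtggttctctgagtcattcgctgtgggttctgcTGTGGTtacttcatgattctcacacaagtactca
Prf1: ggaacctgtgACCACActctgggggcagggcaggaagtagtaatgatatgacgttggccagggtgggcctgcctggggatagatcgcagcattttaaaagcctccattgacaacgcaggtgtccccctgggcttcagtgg
Jchain: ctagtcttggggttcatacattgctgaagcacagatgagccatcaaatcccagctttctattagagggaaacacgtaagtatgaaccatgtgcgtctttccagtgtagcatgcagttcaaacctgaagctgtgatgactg
Measured from the start, the match in Nkg7 ran from -83 to -78, that in Gzma from -50 to -45, those in Gzmb from -93 to -88 and from -34 to -29, and that in Prf1 from -130 to -125.

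Ccl5 encodes the chemokine RANTES, made by T cells, NK cells and platelets among others, which attracts leukocytes (ENSMUSG00000035042, chromosome 11, 83525778 to 83530518, minus strand). It had 16, 16, 26 and 11 counts in the control libraries and 38, 72, 12 and 14 with resmetirom. Resmetirom replicates 1 and 2 lay above every control, and replicates 3 and 4, at 0.799 and 0.949 CPM, lay among the controls at 0.544 to 1.18 CPM. The log2 fold change was 1.39 (edgeR SE of 0.54, adjusted p = 0.197) and 0.68 without resmetirom replicate 2. The platelet gene Pf4 was at -0.95 (edgeR SE of 0.48, adjusted p = 0.337), and the 6 platelet markers summed to 1.64 to 3.09 CPM in the control and 0.813 to 2.48 CPM in the resmetirom libraries.

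Of 15 other lymphocyte-attracting chemokines and cytokines in the table, 9 were tested and 0 called with edgeR, with 3 higher and 1 lower at an unadjusted p under 0.05 and a median of -0.24. DESeq2 called 1 higher (Cxcl13) and 1 lower (Ccl21a), and limma-voom called 0. Cxcl13, which draws B cells, had the list's smallest p, at 1.9 (edgeR SE of 0.49, adjusted p = 0.0617). It had 25 to 57 counts in the control libraries and 39 to 233 with resmetirom, and passed with DESeq2 (adjusted p = 0.000577), when estimation was not robust (adjusted p = 0.0474) and on leaving out resmetirom replicate 4 (adjusted p = 0.0107), while limma-voom gave an adjusted p of 0.124 and leaving out control replicate 4 one of 0.176. Ccl21a, a chemokine that draws T cells and dendritic cells to lymphoid tissue, was at -2.19 (edgeR SE of 0.71, adjusted p = 0.128), with 25 to 109 counts per control and 1 to 20 per resmetirom library. It is one of several near-identical Ccl21 genes among which reads could be split, so its value is uncertain.

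**Figure D3:**
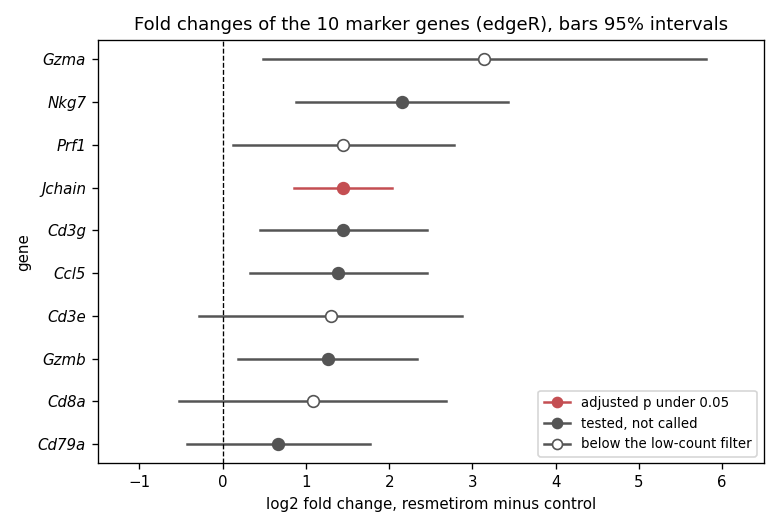
Log2 fold changes (resmetirom minus control) of the 10 marker genes with bars of 95% intervals (normal approximation) from edgeR, filled for the 6 genes above the low-count filter and open for the 4 below it, which come from the fit with no filter. Jchain, in red, is the called gene and has the shortest bar, and Gzma has the largest estimate and the longest bar. The bars are not adjusted for multiple testing and can be shorter than the test implies. That of Gzma (0.48 to 5.81) excludes 0 at an unadjusted edgeR p of 0.0543.

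Across libraries the members were highest in resmetirom replicates 1 and 2. Every one of the 10 had its highest CPM in resmetirom replicate 1 (6 genes) or replicate 2 (4 genes), and 9 had their lowest in a control library, with Cd79a lowest in resmetirom replicate 2. Summed over the 10 genes the level was 3.51 to 6.95 CPM in the controls and 18.8, 25.1, 9.39 and 9.62 CPM in resmetirom replicates 1 to 4. Without Jchain the sums were 2.67 to 5.04 CPM in the controls and 12.9, 20.8, 4.93 and 5.96 CPM in resmetirom replicates 1 to 4, so that replicate 3 then lay within the control range.

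**Figure D4:**
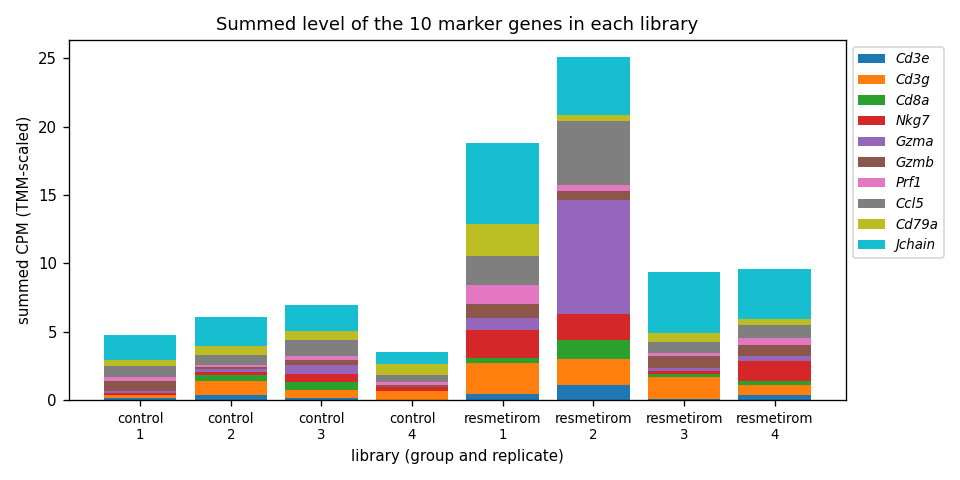
Summed CPM (TMM-scaled) of the 10 marker genes in each library, stacked by gene. Resmetirom replicates 1 and 2 stand at 18.8 and 25.1 CPM above all other libraries, and Jchain makes up a large part of resmetirom replicates 3 and 4.

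Of the markers of leukocytes in general 0 were called with edgeR, DESeq2 or limma-voom. The 13 tested genes of a 14-gene pan-leukocyte list had a median of -0.09, with 0 higher and 1 lower at an unadjusted p under 0.05. Ptprc, which encodes CD45 and is carried by all leukocytes, was at 16.0 ± 3.05 and 16.3 ± 6.1 CPM (SD, n = 4 per group), which gave a log2 difference of 0.03 (edgeR SE of 0.25, adjusted p = 0.974) whose sign depended on the setting. Lcp1, an actin-bundling protein of leukocytes and the list's gene with the smallest p, was at -0.34 (edgeR SE of 0.12, adjusted p = 0.162), and was called lower when libraries were scaled by totals alone (-0.64, adjusted p = 0.0214) and by limma on log2(TPM + 1) values (-0.9, adjusted p = 0.00714). Lcp1 also had the most counts of the list and so weighs most in its summed share. It had 1769 to 1982 counts per control library, where the list summed to 4614 to 5692. With resmetirom it had 827 to 1465, where the list summed to 2235 to 4616. The list took 0.0261% ± 0.00252 of all counts in the control libraries and 0.019% ± 0.00655 with resmetirom (SD, n = 4 per group). A 2-sided exact permutation test gave p = 0.114, where 0.0286 is the smallest possible. As a share of the TMM-scaled library size it was 0.0234% ± 0.00167 and 0.0207% ± 0.0051 (SD, n = 4 per group; exact permutation p = 0.429). The share of all counts was 0.0275% and 0.0208% in resmetirom replicates 1 and 2 and 0.0144% and 0.0133% in replicates 3 and 4, so the libraries with the most lymphocyte marker counts were also those with the most pan-leukocyte counts of their group. The part of this in the members' values was not tested.

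Among markers of other blood, sinusoidal and neighbouring-tissue cells, Alas2 was the 1 gene called with edgeR, and DESeq2 and limma-voom called the same 1. The 14 Kupffer cell, macrophage and monocyte markers were all tested with 0 called (0 also at an unadjusted p under 0.05) and a median of -0.08, and their sum was 689 to 1070 CPM in the control libraries and 416 to 1130 CPM with resmetirom, highest in resmetirom replicate 1. Marco, a scavenger receptor and the smallest p of that list, was at 1.79 (edgeR SE of 0.78, adjusted p = 0.303). The 6 sinusoidal endothelial markers had 0 called, 0 higher and 2 lower at an unadjusted p under 0.05, and a median of -0.25, with Stab2 at -0.46 (edgeR SE of 0.15, adjusted p = 0.117). Dendritic cell markers (7 of 9 tested) and neutrophil markers (3 of 8) had 0 called. At an unadjusted p under 0.05, 1 dendritic cell gene was higher (Flt3) and 1 lower (Itgax), and the dendritic cell median was -0.02. Flt3 was at 1.11 (edgeR SE of 0.45, adjusted p = 0.21). Itgax, which encodes the integrin CD11c, was at -0.77 (edgeR SE of 0.30, adjusted p = 0.197) and the neutrophil gene S100a9 at -0.51 (edgeR SE of 0.43, adjusted p = 0.625), and Ly6g and Mpo were at 0 counts in every library. On the log2(TPM + 0.1) scale, where the median of all genes was -0.50, limma called Stab2 (-0.79, adjusted p = 0.0224), Itgax (-1.29, adjusted p = 0.0206), S100a9 (-1.22, adjusted p = 0.0404) and the platelet gene Pf4 (-1.45, adjusted p = 0.0186) lower, as it did for log2(TPM + 1) values. Stab2 was also called lower when libraries were scaled by totals alone (-0.75, adjusted p = 0.0194).

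Genes of red blood cells, which can show blood left in the tissue, summed to 107 to 232 CPM in the control libraries and 137 to 343 CPM with resmetirom, with the highest value in resmetirom replicate 1 and the lowest resmetirom value in replicate 2. Of these the globin gene Hbb-bs was at 145 CPM in resmetirom replicate 1 and 67.2 CPM in replicate 2, against 20.7 to 86.2 CPM in the controls. Alas2, the erythroid enzyme of heme synthesis, fell by a log2 value of 2.52 (edgeR SE of 0.29, adjusted p = 0.00158) from 49.5 ± 15.5 to 8.62 ± 2.78 CPM (SD, n = 4 per group). The list's 4 other tested genes, all globins, lay above 0 and were not called (edgeR, adjusted p of 0.407 to 0.546). They were Hba-a1 at 0.78, Hba-a2 at 0.9, Hbb-bs at 0.74 and Hbb-bt at 0.93, and the list's median was 0.78. The sums of the list include Alas2. Of the pancreas and intestine markers, for neighbouring tissue, Prss2 was at 0 in every library, Cpa1, Amy2a5 and Vil1 were at 0 to 3 counts, and Cela1, which had the smallest p, was at 0.52 (edgeR SE of 0.19, adjusted p = 0.166). The remaining marker, Fabp2, had 3723 to 4369 counts per control and 2991 to 3629 per resmetirom library, at 0.11 (edgeR SE of 0.08, adjusted p = 0.557). Its mean was 192 and 207 CPM, where the whole list summed to 185 to 215 CPM in the control and 205 to 218 CPM in the resmetirom libraries. The part of blood or neighbouring tissue in the members' values was not tested.

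**Figure D5:**
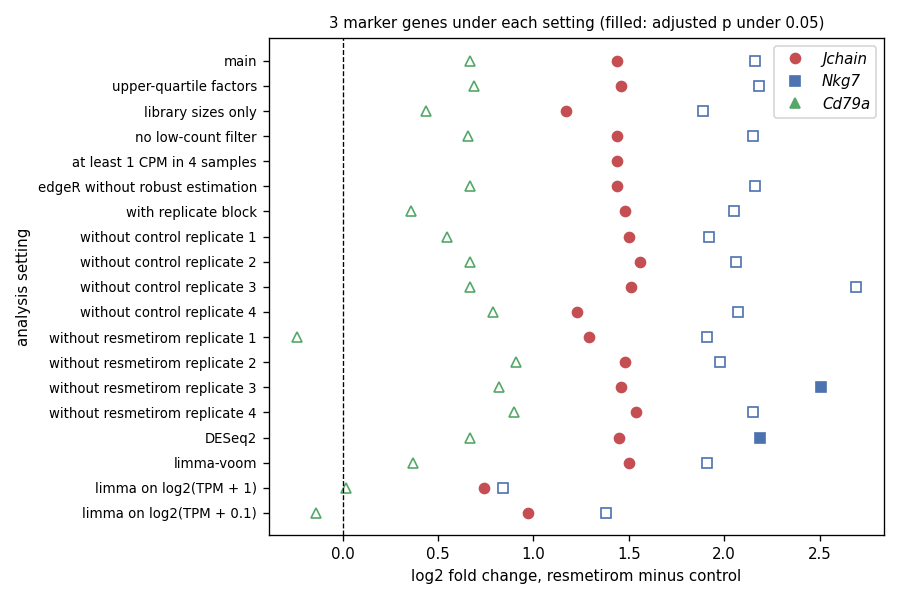
Log2 fold changes of Jchain, Nkg7 and Cd79a under the main analysis and each alternative, filled where the adjusted p is under 0.05. Jchain is filled throughout (0.74 to 1.56), Nkg7 is filled with DESeq2 and without resmetirom replicate 3, and Cd79a crosses 0.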

How the data were processed

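Poly(A)-selected liver RNA of 8 mouse libraries (4 control, 4 resmetirom, from the sample titles) was sequenced. Tools in the submitters' processing notes, listed without roles, are HISAT2 2.1.0, Bowtie2 2.2.8, StringTie 1.3.1, fastp 0.18.0, edgeR, RSEM and DESeq2, with the mm10 build. The authors deposited whole-number counts per gene and library and TPM values, per the file headers. The authors' deposited log2 fold change compares group means of TPM, and the tool behind the authors' deposited p-value columns is not given in the labels. All per-sample columns matched a sample (0 unmatched), and 5994 genes had no counts.

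The main test was that of edgeR 4.0.16 under R 4.3.3 (filterByExpr, TMM factors, robust glmQLFit and glmQLFTest) over 12207 genes, with Benjamini-Hochberg adjustment and a threshold of 0.05, and fold changes are resmetirom minus control. The SE of a change was derived from its F statistic. Members below the filter are given as counts and ratios of mean CPM, with the p of a fit with no filter. The procedure was tested on simulated data. Pairs of libraries of 1 group differed by a chi-square per degree of freedom of 13.2 or more, so none repeated another. Alternatives were DESeq2 1.42.0, limma 3.58.1 (voom, and log2(TPM + 1) and log2(TPM + 0.1)), other factors and filters, a replicate block and leaving out each library. Positions come from GENCODE M21 on GRCm38, the assembly of mm10. Members and the 15 other gene lists were chosen with earlier results of these data known. Genes named outside the members are up to 3 called genes of each list by p, or else the gene with the smallest p, and Ptprc. Other named genes (Cd79b, receptor and antibody chains, NK receptors, Trac, Cd4, Gzmk, Alb, Apoa1, Tent5c, Prdm1, Ccl21a, Flt3, Amy2a5, Mzb1, Tnfrsf17, globin genes) were chosen after their values were seen. The same holds for Fabp2, Zap70, Icos and Cd22.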

Additional observations from a re-analysis of the deposited data

Results flagged for a closer look

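A single library stood apart from the other 3 of its group, by Dixon's gap test for 4 values at its 95% critical value, in 3 of the 20 groups examined (10 genes in each treatment group). Chance gives about 1 in 20 for independent, normally distributed values. Low counts are skewed and these genes share libraries, so that rate may not hold here and an excess cannot be told. Gzma was at 8.31 CPM in resmetirom replicate 2, against 0.2 to 0.902 CPM in the other resmetirom libraries. Cd8a was at 1.43 CPM in the same library, against 0.266 to 0.395 CPM. Cd79a was at 2.37 CPM in resmetirom replicate 1, against 0.455 to 0.666 CPM. All 3 were in the resmetirom group, and Gzma and Cd8a shared the library.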

How the results depend on the processing

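The call of Jchain and the absence of members called lower held under all 18 alternatives, while 2 members (Jchain and Nkg7) were called higher with DESeq2 and, leaving out 1 library at a time, 1 to 2. With library sizes only, 151 genes were called higher and 1961 lower, with DESeq2 532 and 411, on the log2(TPM + 1) scale 127 and 4635, and on the log2(TPM + 0.1) scale 128 and 4593, with a median over all genes of -0.31, -0.0004, -0.41 and -0.50. Leaving out 1 library gave 182 to 313 higher and 149 to 238 lower, where leaving out control replicate 4 gave 182 and 149 and leaving out resmetirom replicate 4 gave 208 and 161. Leaving out 1 library at a time, Cd79a ran from -0.24 (without resmetirom replicate 1) to 0.91, and it was -0.14 on the log2(TPM + 0.1) scale. For Kit the values were -0.14 for totals alone, -0.17 for log2(TPM + 1) and -0.3 for log2(TPM + 0.1). For Ptprc these 3 settings gave -0.26, -0.45 and -0.54, the replicate block and limma-voom gave -0.02, and leaving out 1 library gave -0.15 to 0.19, with -0.02, -0.07, -0.12 and -0.15 when it was control 1, control 2, resmetirom 1 or resmetirom 2. The cause was not tested. The replicate numbers do not pair the samples: same-numbered libraries had correlated deviations of -0.325 to 0.184, and 2 of 8 libraries correlated best with their own number. With the replicate block 240 genes were called higher and 166 lower, Jchain stayed called (1.48, adjusted p = 0.0308 with edgeR), Igha had 2.3 with an adjusted p of 0.0575, and Cxcl13 passed at 1.71 (adjusted p = 0.0261). The ratios of Cd3e, Cd8a, Gzma and Prf1 under other scalings and without each library were added after the data were seen, and all stayed above 0. Counts of 1 to 26 per control library for the members other than Jchain limit what can be told to large differences.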

Other observations

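The heavy chain counts held a larger part of IgA in the resmetirom libraries. This measure was chosen after the values of Igha and Ighm were seen and has no test. Igha made up 6.4, 18.9, 16.0 and 11.4% of the counts of 7 heavy chain genes (Igha, Ighm, Ighd, Ighg1, Ighg2b, Ighg2c and Ighg3) in control replicates 1 to 4 and 34.6, 28.3, 25.2 and 40.1% in resmetirom replicates 1 to 4. The exact 95% binomial intervals, which cover counting error only, were 13.3 to 25.7% in the highest control and 18.4 to 33.0% in the lowest resmetirom library, from 169 and 147 heavy chain counts, and these intervals overlap.

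The lists of T, NK and B cell genes also had their highest sums in resmetirom replicates 1 and 2, given as a description with no test. T cell genes summed to 9.87 to 13.4 CPM in the control and to 19.1, 23.1, 17.6 and 12.5 CPM in resmetirom replicates 1 to 4. NK and cytotoxic genes summed to 16.9 to 22.7 CPM in the control and to 25.3, 30.5, 16.2 and 12.8 CPM in resmetirom replicates 1 to 4. B cell genes summed to 19.5 to 28.9 CPM in the control and to 37.7, 35.7, 17.8 and 14.8 CPM in resmetirom replicates 1 to 4, so that replicates 3 and 4 lay below every control library for NK and for B cell genes.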
